A study of Mus musculus with 18 samples.

Results

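The 10 genes described here are Toll-like receptors and the first steps of the pathway behind them: the receptors Tlr2, Tlr3, Tlr4, Tlr7, Tlr8, Tlr9 and Tlr13, the co-receptor Cd14, the adaptor Myd88 and the NF-kB gene Nfkb2. They were chosen by symbol, and all 10 were found among the 48709 genes listed for each library. RNA was sequenced from whole quadriceps of 18 mice, 1 library per mouse, in 6 groups. WT mice were C57BL/6J. dyW mice carried the Lama2 allele of B6.129S1(Cg)-Lama2tm1Eeng/J, a model of the congenital muscular dystrophy caused by loss of laminin alpha 2, which the labels call a knock-out and its carriers hemizygotes. The groups were untreated WT (n = 3), untreated dyW (n = 4), WT given PBS (n = 3), dyW given PBS (n = 3), dyW given TD139 (n = 3) and WT given TD139 (n = 2). TD139 is a small-molecule inhibitor of galectin-3, and PBS is the saline used as its control; its dose, route and duration are not given in the sources used here. The label age was 5 weeks for untreated mice and 3 weeks for mice given PBS or TD139, while the protocol text places collection at 5 weeks for all. Both sexes were used. Each library carried its own animal number, so the spread within a group is that between mice.

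Toll-like receptors recognise molecules of microbes and of damaged tissue. Tlr2 and Tlr4 sit on the cell surface, Tlr4 together with Cd14, which hands it lipopolysaccharide. Tlr3, Tlr7, Tlr8, Tlr9 and Tlr13 sit in endosomes and bind nucleic acids. All of these receptors except Tlr3 pass their signal to Myd88, which recruits kinases of the Irak family; the kinases lead to the IKK complex and the release of NF-kB from its inhibitors. Nfkb2 encodes a precursor protein that is both an inhibitor and, once cut, the subunit that pairs with Relb in the alternative NF-kB branch. In muscle these receptors are best known from macrophages and other immune cells that enter damaged tissue, and endothelium and other cells of the tissue make some of them too. In whole muscle, a larger number of cells that make an RNA and more of that RNA per cell cannot be told apart.

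The library totals ranged from 15.8 to 45.2 M exon reads, and the lowest was replicate 1 of dyW given PBS. Lama2, the mutated gene, was read at 4.46 to 5.02 RPKM (exon reads scaled to the length of the exons and the depth of the library) in untreated WT and 0.545 to 0.831 in untreated dyW. Lgals3, which encodes galectin-3, was at 1.29 to 1.90 and 37.5 to 65.4 RPKM in the same groups. The fibre markers Acta1, Ckm, Tnnt3, Ttn and Myh4 summed to 38845 to 51057 RPKM in untreated WT and 28296 to 36527 in untreated dyW. Replicate 1 of WT given PBS and replicates 3 and 4 of untreated dyW stood apart in Myh7, the myosin of slow fibres, at 442, 236 and 291 RPKM against 0.00920 to 44.0 in the other libraries, and results that change without them are given with and without.

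On the mm10 build of the mouse genome, with positions as deposited, Tlr2 lies at chr3:83836272-83841767, Tlr3 at chr8:45395665-45411080 and Tlr4 at chr4:66827584-66930284. Tlr9 lies at chr9:106222598-106226883 and Myd88 on the same chromosome at chr9:119335934-119341411. Nfkb2 lies at chr19:46304737-46312090. Of the others except Cd14, given with its values, 3 are on the X chromosome: Tlr13 at chrX:106143204-106160493, and Tlr8 at chrX:167242696-167264329 next to Tlr7 at chrX:167304929-167330558, with 40599 bases between them. All 10 are protein-coding, and the values count reads over their exons.

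Promoter sequences were examined because NF-kB and interferon regulatory factors act at the promoters of several genes of this pathway. RefSeq windows on GRCm38.p6, from 250 bases before to 50 after a start site, were at hand for 7 of the 10 genes (Tlr2, Tlr3, Tlr8, Tlr9, Tlr13, Myd88 and Nfkb2); Tlr4, Tlr7 and Cd14 are named only. The kB consensus, searched on both strands, was found in 3 of the 7 (Tlr2, Tlr3 and Nfkb2), beside 4.51% of all 32851 windows and 5.14% of the 27025 genes with a window. The interferon-response letters GAAA, any 2 bases, GAAA were found in 1 of the 7, Myd88, beside 3.44% of windows and 3.99% of genes. GAGGAAGT, letters bound by the myeloid factor PU.1, were found in Tlr9, beside 3.20% of windows and 3.69% of genes. The matches in Nfkb2, Tlr2 and Myd88 are shown with 10 bases on each side, 5′ to 3′ along the gene, with the match in capitals:
Nfkb2 chr19:46304688-46304717: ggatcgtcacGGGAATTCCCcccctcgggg
Nfkb2 chr19:46304716-46304745: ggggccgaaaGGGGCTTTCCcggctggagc
Nfkb2 chr19:46305449-46305478: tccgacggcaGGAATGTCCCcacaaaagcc
Nfkb2 chr19:46305695-46305724: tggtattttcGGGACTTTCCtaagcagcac
Tlr2 chr3:83841761-83841790: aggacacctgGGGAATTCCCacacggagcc
Tlr2 chr3:83841597-83841626: ccctgacctgGGGACATCCCcttccctcac
Myd88 chr9:119340039-119340068: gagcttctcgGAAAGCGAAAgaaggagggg
Nfkb2 has more than 1 start site, and its windows hold 4 separate stretches; the one starting at 46305449 matches on the other strand. Tlr2 has the same letters GGGAATTCCC as Nfkb2, starting at position -172 from its start site. By GENCODE M21 that site of Tlr2 lies upstream of the annotated exons. By the same annotation, the Nfkb2 site at 46305449 and the Myd88 site lie in an intron of the gene, each before one of its start sites. The other sites shown lie in a UTR. The deposited span of Nfkb2 differs from that of GENCODE M21 and starts at 46304737, after the first 2 Nfkb2 matches shown. These are matches of letters and no measure of binding.

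In untreated WT muscle every member was weakly expressed. Nfkb2 was highest at 2.90 ± 0.531 RPKM (SD, n = 3), then Myd88 at 2.07 ± 0.201, and their ranges did not overlap each other or the next gene. Tlr4 at 0.963 ± 0.177 and Cd14 at 0.915 ± 0.275 followed. From there to Tlr9, the lowest at 0.108 ± 0.0765, each gene's range overlapped that of its neighbour, in the order Tlr3, Tlr2, Tlr7, Tlr8, Tlr13, Tlr9. In untreated dyW the order was different. Nfkb2 (14.4 ± 2.43 RPKM, SD, n = 4), Myd88 (7.03 ± 1.17) and Cd14 (5.13 ± 0.738) formed 3 separate steps. Tlr2 came next at 2.39 ± 0.841; its range overlapped that of Tlr4 at 1.77 ± 0.387, and so on down through Tlr13, Tlr7 and Tlr3. Tlr9 and Tlr8 were the lowest, below the range of Tlr3. Tlr13 moved from rank 9 to rank 6 among the 10, from 0.134 ± 0.0201 to 1.39 ± 0.394 RPKM, while Tlr3 moved from rank 5 to rank 8. The precision of the low receptors is limited by reads: a library held 1 to 100 reads of Tlr9 and 3 to 338 of Tlr13, against 295 to 2411 of Nfkb2.

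**Figure D1:**
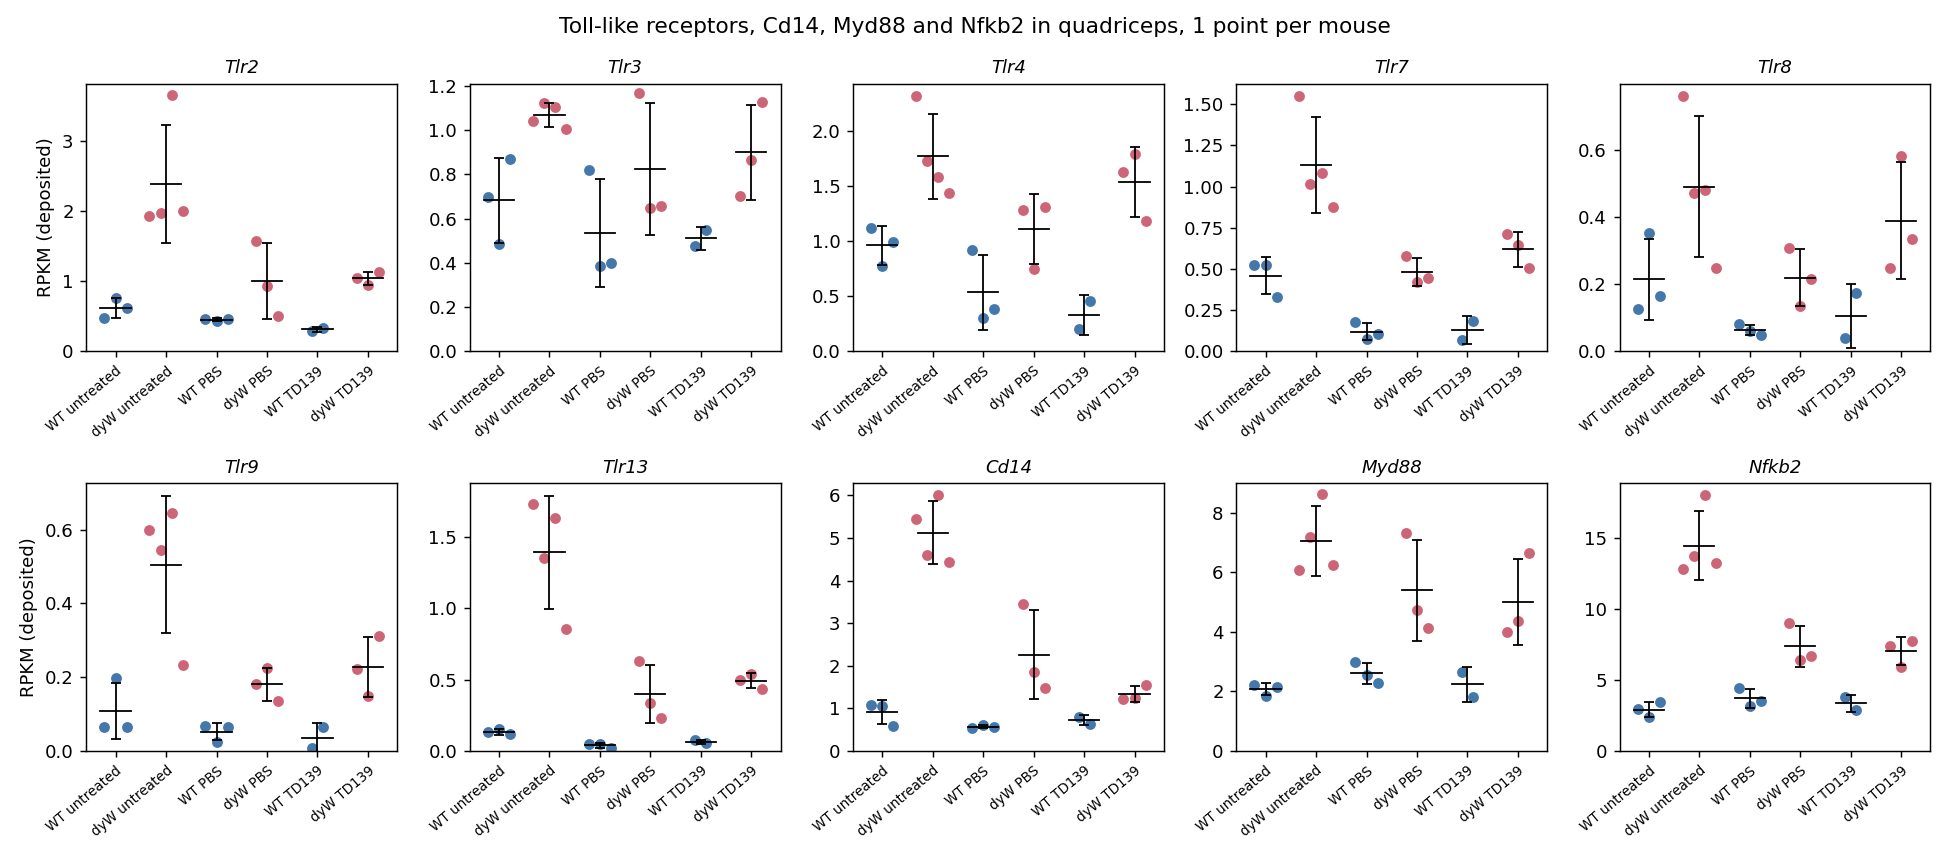
Deposited RPKM of the 10 genes (vertical axes from 0, linear) in each of 18 mice, by group; points are mice, horizontal lines are means and error bars are SD. The 4 untreated dyW mice lie above all 3 untreated WT mice for 9 genes, with Tlr8 the exception, beside 51.3% of all genes on RPKM. After TMM scaling it is 6 of 10, beside 25.9%. Nfkb2 reaches 18.03 RPKM in untreated dyW replicate 3.

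The comparison of untreated dyW with untreated WT asks what the dystrophy changes. On it, 7 of the 10 genes rose and none fell: Tlr2, Tlr7, Tlr9, Tlr13, Cd14, Myd88 and Nfkb2. Beside this, 24.7% of the 14846 genes tested were called higher, 25.1% lower and 49.8% in either direction, so a rise is common in this comparison. The median fitted log2 fold change was 1.29 over the 10 genes and 0.03 over all genes tested. All 10 estimates were positive.

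Of the surface receptors, Tlr2, which senses bacterial lipopeptides, stood at 0.476, 0.760 and 0.616 RPKM in the 3 WT mice. In the 4 dyW mice it was at 1.94, 1.98, 3.66 and 2.00. No dyW mouse overlapped WT, and replicate 3 was well above the other dyW mice. The fitted rise was 2.59-fold, a log2 fold change of 1.37 ± 0.28 (SE; edgeR adjusted p = 0.00409). Cd14, at chr18:36725074-36726736, was at 1.09, 1.06 and 0.598 RPKM in WT and at 5.45, 4.60, 6.01 and 4.44 in dyW, again without overlap. Its log2 fold change was 1.94 ± 0.23 (SE; edgeR adjusted p = 0.000392), 3.84-fold. Tlr4, the lipopolysaccharide receptor that Cd14 serves, behaved otherwise. Its RPKM was 1.12, 0.772 and 0.993 in WT and 2.33, 1.73, 1.59 and 1.44 in dyW, and its log2 fold change of 0.35 ± 0.21 (SE; edgeR adjusted p = 0.196) did not pass the threshold. Without untreated dyW replicates 3 and 4, Tlr4 passed at 0.63 (edgeR adjusted p = 0.0488).

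Tlr13, a mouse receptor for bacterial ribosomal RNA, had the largest fitted change of the 10. It was at 0.132, 0.156 and 0.116 RPKM in the 3 WT mice. The dyW mice held 1.73, 1.35, 1.63 and 0.852 RPKM, so that the lowest dyW mouse, replicate 4, was still above every WT mouse. The log2 fold change was 2.82 ± 0.31 (SE; edgeR adjusted p = 0.000302), 7.05-fold. Tlr9, the receptor for unmethylated CpG DNA, ranged over 0.0640 to 0.197 RPKM in WT and 0.234 to 0.644 in dyW, with a log2 fold change of 1.64 ± 0.53 (SE; edgeR adjusted p = 0.0297). Its call was lost without untreated WT replicate 1 or 3 or untreated dyW replicate 2 or 3, with log2 fold changes of 1.33 to 1.64 and edgeR adjusted p of 0.0537 to 0.105.

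The single-stranded RNA receptors Tlr7 and Tlr8 are neighbours on the X chromosome. Tlr7 was at 0.523, 0.522 and 0.327 RPKM in WT and at 1.55, 1.02, 1.08 and 0.873 in dyW. Its log2 fold change of 0.77 ± 0.28 (SE; edgeR adjusted p = 0.0446) passed narrowly and was lost on leaving out any library except untreated dyW replicate 4 (0.57 to 0.93, edgeR adjusted p 0.0537 to 0.151). Tlr8 overlapped between the groups, at 0.125 to 0.352 and 0.249 to 0.760 RPKM, with a log2 fold change of 0.63 ± 0.49 (SE; edgeR adjusted p = 0.307). Tlr3, the receptor for double-stranded RNA that signals through Ticam1 and not Myd88, had the smallest estimate. It was at 0.696, 0.485 and 0.869 RPKM in WT and at 1.04, 1.12, 1.11 and 1.01 in dyW, with a log2 fold change of 0.10 ± 0.20 (SE; edgeR adjusted p = 0.705). Its RPKM was higher in every dyW mouse, whereas after edgeR's TMM scaling the groups overlapped.

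Downstream of the receptors, Myd88 was at 2.21, 1.84 and 2.15 RPKM in WT and 6.07, 7.19, 8.63 and 6.25 in dyW. The groups were far apart relative to their spread, with a log2 fold change of 1.21 ± 0.13 (SE; edgeR adjusted p = 0.000307). Nfkb2 was at 2.93, 2.36 and 3.42 RPKM in WT and 12.8, 13.7, 18.03 and 13.2 in dyW. Its log2 fold change was 1.76 ± 0.15 (SE; edgeR adjusted p = 0.000164), 3.38-fold, the smallest adjusted p of the 10 genes. The calls of Tlr2, Tlr13, Cd14, Myd88 and Nfkb2 held in all 17 alternative analyses of this comparison. The authors' deposited table of dyW against WT also has 7 of the 10 genes at an FDR under 0.05, with log2 fold changes of 2.79 for Tlr13 and 1.73 for Nfkb2.

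The scale matters for the remaining 3 genes. RPKM carries no TMM correction, and on log2(RPKM + 0.1), tested with limma, the median log2 fold change of all genes was 0.51 in place of 0.03. On that scale all 10 genes passed, with Tlr3 at 0.61, Tlr4 at 0.81 and Tlr8 at 0.90, while 7636 genes were called higher and 1293 lower, against 3671 and 3724 in the edgeR fit. By RPKM, 9 of the 10 genes did not overlap between the groups, all higher, beside 51.3% of all genes higher and 9.94% lower. After TMM it was 6 of 10, beside 25.9% higher and 28.0% lower: Tlr2, Tlr7, Tlr13, Cd14, Myd88 and Nfkb2.

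**Figure D2:**
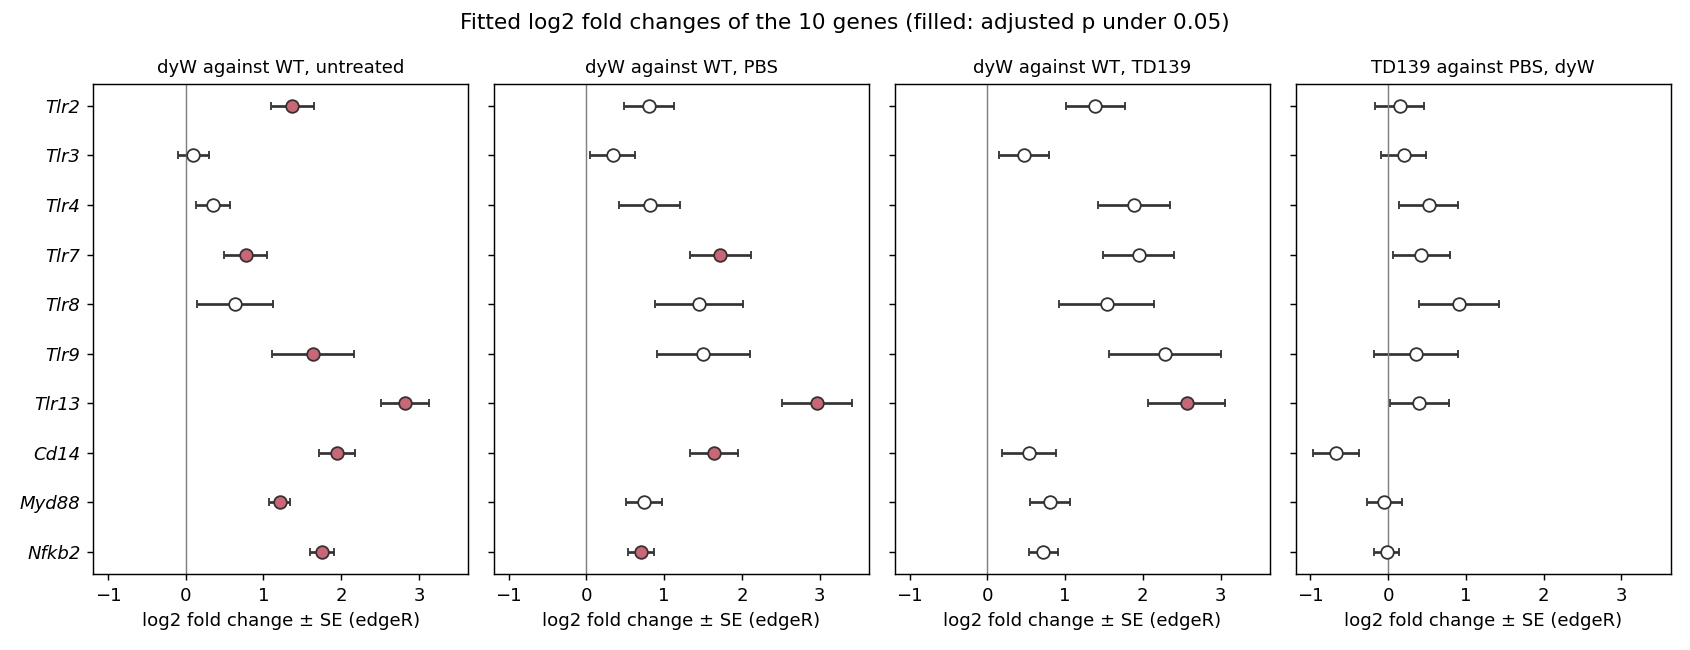
Fitted log2 fold change ± SE (edgeR; horizontal axes, same scale) of the 10 genes in 4 comparisons; filled points have an adjusted p under 0.05. In untreated mice 7 points are filled, under PBS 4 and under TD139 1, beside 24.7%, 2.40% and 0.757% of all genes called higher. In the comparison of TD139 with PBS in dyW none is filled.

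Markers of several cell types differed in the same comparison. Their sums are RPKM without TMM, a scale on which 51.3% of all genes were higher without overlap. The counts of markers called stand beside 24.7% of all genes higher and 25.1% lower in the edgeR fit. The 8 macrophage markers (Adgre1, Cd68, Csf1r, Mrc1, Cd163, Fcgr1, Mertk and Mpeg1) summed to 17.3 to 22.99 RPKM in untreated WT and 71.6 to 103 in untreated dyW, and 5 of the 8 rose, Mpeg1 by a log2 fold change of 4.03 (edgeR adjusted p = 4.75e-05). Neutrophil markers summed to 0.556 to 0.938 and 2.84 to 17.2 RPKM, with 4 of 4 tested higher, and the defining marker Ly6g had no read in untreated dyW. T cell markers summed to 0.222 to 0.849 and 1.52 to 2.88 RPKM, with 1 of 5 higher, and dendritic cell markers to 0.858 to 0.945 and 1.48 to 1.87 RPKM, with 2 of 5 higher. The B cell sums overlapped, at 0.182 to 0.718 and 0.586 to 1.18 RPKM, and 0 of 2 tested markers passed. Outside the immune cells, fibroblast markers summed to 381 to 531 and 666 to 1175 RPKM and endothelial markers to 32.5 to 43.4 and 56.9 to 77.0, each with 2 of 4 higher. Of 4 mast cell markers 1 was higher, and the adipocyte sums overlapped, at 18.3 to 69.7 and 34.4 to 339 RPKM, with 0 of 3 past the threshold. Of 2 satellite cell markers 1 was lower, as were 4 of the 5 fibre markers. In the edgeR fit the median log2 fold change was 1.57 for the macrophage list, 0.38 for the fibroblast list and 0.35 for the endothelial list. It was 0.03 for all genes. The part of these cells in the changes of the 10 genes was not tested.

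Set against the macrophage markers within each library, a ratio that does not depend on how libraries are scaled, the 10 genes did not keep 1 proportion. In untreated mice the macrophage sum was 2.12 higher in dyW on the log2 scale. Tlr13 rose beyond this sum but not beyond each marker in it. The edgeR fit sets Tlr13 beside single markers after TMM, a scale unlike the 2.12 of the RPKM sum. Its log2 fold change was 2.82 for Tlr13, 4.03 for Mpeg1 and 2.76 for Fcgr1. The other markers ran from -0.28 (Cd163) to 2.51 (Cd68). The log2 ratio of Tlr13 to the macrophage sum was -7.19, -7.21 and -7.22 in the WT mice and -5.75, -5.87, -5.98 and -6.39 in the dyW mice, a difference of 1.21 without overlap. The ratio of Cd14 was higher in dyW by 0.40, also without overlap, and in the 4 dyW mice it was -4.10, -4.10, -4.10 and -4.01. Tlr3, Tlr4 and Tlr7 had lower ratios in dyW, with differences of -1.44, -1.25 and -0.82 and no overlap. For Tlr2 (-0.20), Tlr8 (-0.90), Tlr9 (0.21), Myd88 (-0.37) and Nfkb2 (0.19) the groups overlapped. These ratios are a description without a test. They were not computed for all genes, here or in the other comparisons, so the share of all genes without overlap is not known. A gene with unchanged RPKM would have a lower ratio in dyW, where the macrophage sum is higher.

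**Figure D3:**
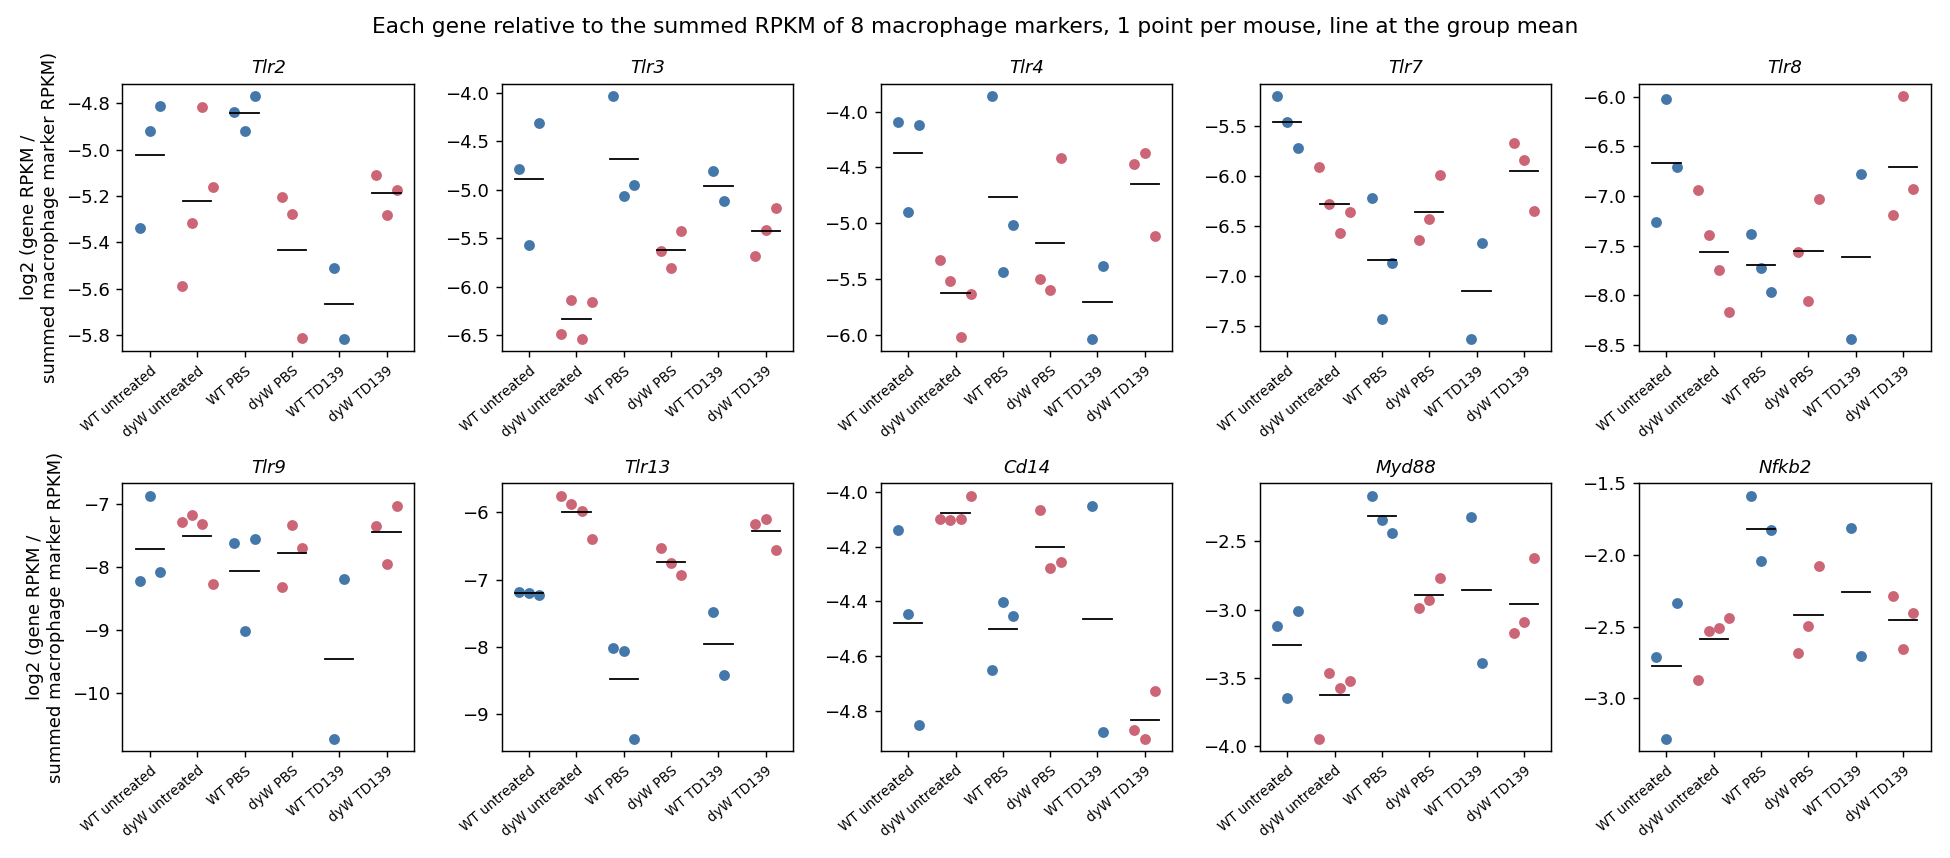
log2 ratio of each gene's RPKM to the summed RPKM of 8 macrophage markers (vertical axes, not from 0) in each of 18 mice, by group; lines are group means. The ratio of Tlr13 is higher in every dyW mouse than in any WT mouse of the same treatment, by 1.21, 1.75 and 1.67 in the means for untreated, PBS and TD139 mice.

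Other genes of the pathway were read from fixed lists. In untreated mice the counts of each list stand beside 24.7% of all genes higher and 25.1% lower in the edgeR fit. Of the other Toll-like receptors, 1 of 4 tested rose in untreated dyW: Tlr1, the partner of Tlr2, at a log2 fold change of 2.95 ± 0.34 (SE; edgeR adjusted p = 0.000341). Among receptor partners and trafficking proteins, 6 of 11 rose and none fell. They included Unc93b1, which carries the nucleic acid receptors to endosomes, at 1.85 ± 0.24 (SE; edgeR adjusted p = 0.000530). Ly86 (MD-1), the partner of the Toll-like receptor homologue Cd180, was at 2.65 ± 0.34 (SE; edgeR adjusted p = 0.000534), and the chaperone Cnpy3 was at 0.87 ± 0.12 (SE; edgeR adjusted p = 0.000584). The median of that list was 0.87, beside 0.03 for all genes.

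The adaptors, kinases and ligases of the receptor complex were split, with 5 of 19 higher and 6 lower in the edgeR fit and 11 higher and 3 lower on the RPKM scale. Traf6, the ubiquitin ligase behind the Irak kinases, was lower at -1.02 ± 0.13 (SE; edgeR adjusted p = 0.000488). Irak4, the first kinase recruited by Myd88, was higher at 1.23 ± 0.18 (SE; edgeR adjusted p = 0.000839), as was the kinase Ikbke at 1.23 ± 0.18 (SE; edgeR adjusted p = 0.000873). The list's median was 0.03, the same as for all genes. NF-kB subunits and IKK were split too, 3 of 8 higher and 2 lower in the fit but 5 higher and none lower by RPKM. Over all genes the calls were 3671 higher and 3724 lower in the fit and 7636 and 1293 by RPKM. Relb, the partner of Nfkb2, was at 1.15 ± 0.17 (SE; edgeR adjusted p = 0.00102). Rel was at -1.12 ± 0.25 (SE; edgeR adjusted p = 0.00661), and Ikbkg, the scaffold of IKK, at -0.42 ± 0.10 (SE; edgeR adjusted p = 0.00793), which on the RPKM scale turned to 0.13 (limma adjusted p = 0.387). Without untreated dyW replicates 3 and 4 Ikbkg was -0.31 and not called (edgeR adjusted p = 0.0531), which left 1 of the 8 lower.

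Inhibitors and feedback genes of NF-kB had 9 of 19 higher and 2 lower in the fit, and 17 higher and none lower by RPKM; without untreated dyW replicates 3 and 4, 1 was lower. Traf1, a target and regulator of the pathway, led with 2.15 ± 0.23 (SE; edgeR adjusted p = 0.000263). Nfkbie, an inhibitor of NF-kB, was at 2.12 ± 0.25 (SE; edgeR adjusted p = 0.000387) and Tnip2 at 1.19 ± 0.16 (SE; edgeR adjusted p = 0.000696). The list of alternative-branch receptors and their ligands had 7 of 10 tested higher and none lower, with a median of 1.14. The list also holds the TNF receptors; Tnfrsf1a is known chiefly for the canonical branch. Tnfrsf1a and Tnfrsf1b were at 1.62 ± 0.13 (SE; edgeR adjusted p = 0.000132) and 1.97 ± 0.20 (SE; edgeR adjusted p = 0.000230), and Ltbr, the lymphotoxin beta receptor that drives processing of the Nfkb2 protein, at 0.73 ± 0.10 (SE; edgeR adjusted p = 0.000564).

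Inflammatory targets of NF-kB had 7 of 13 tested higher and 1 lower. The chemokine Cxcl10 was at 3.83 ± 0.51 (SE; edgeR adjusted p = 0.000581), and the adhesion molecules Vcam1 and Icam1 were at 0.90 ± 0.14 (SE; edgeR adjusted p = 0.00108) and 1.38 ± 0.24 (SE; edgeR adjusted p = 0.00186). All 4 interferon regulatory factors tested were higher: Irf5 (1.41), Irf8 (1.00), Irf7 (0.96) and Irf3 (0.37). Irf7 lost its call without untreated WT replicate 2 or 3 or untreated dyW replicate 2 or 3 (0.82 to 0.86, edgeR adjusted p 0.0576 to 0.0955), and without dyW replicates 3 and 4 together (0.92, 0.0670), where 2 of the 4 passed. Matrix and alarm proteins reported as endogenous ligands of Tlr2 and Tlr4 had 8 of 10 tested higher, with a median of 2.47. Biglycan (Bgn) was at 2.53 ± 0.14 (SE; edgeR adjusted p = 6.70e-05), tenascin C (Tnc) at 2.42 ± 0.27 (SE; edgeR adjusted p = 0.000310) and fibronectin (Fn1) at 1.30 ± 0.22 (SE; edgeR adjusted p = 0.00177).

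**Figure D4:**
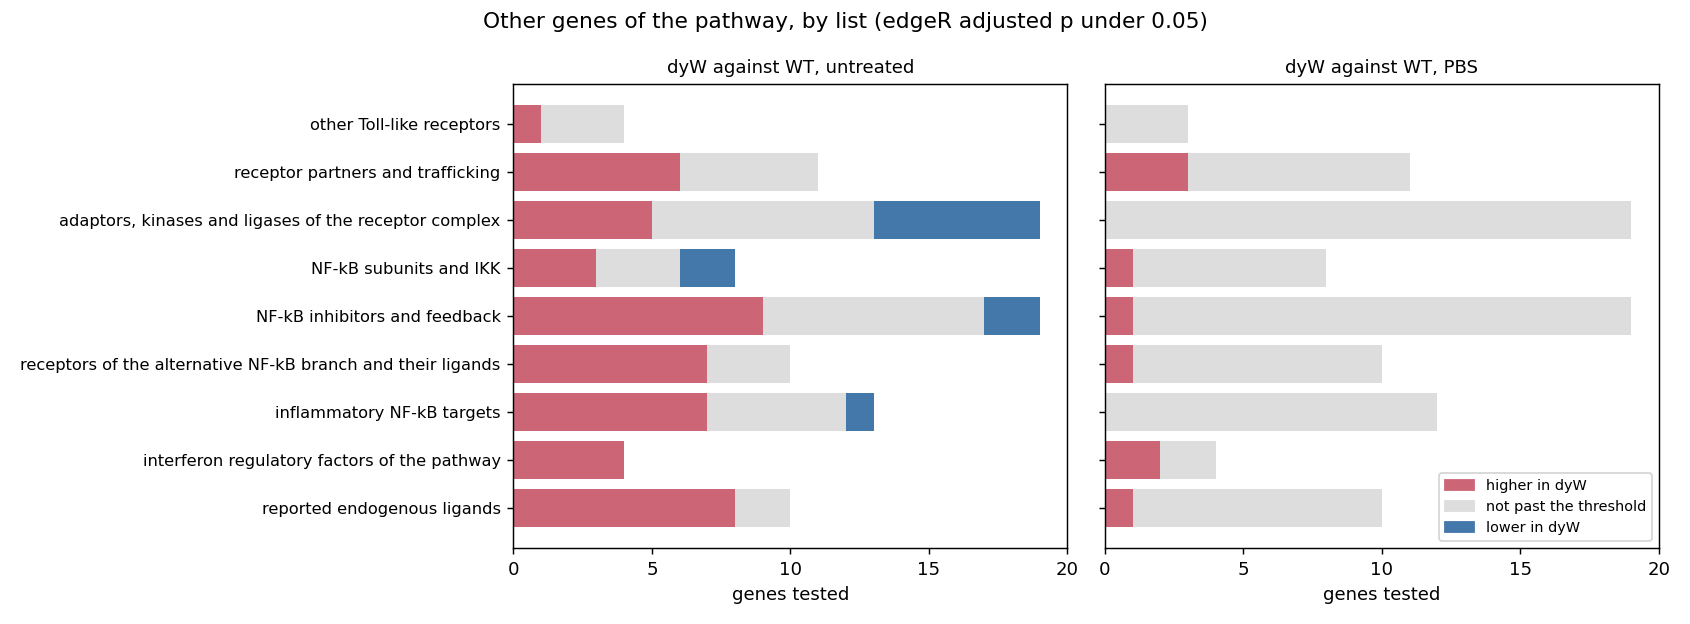
Number of genes tested (horizontal axis) in each list of other pathway genes, divided into those higher in dyW, lower in dyW and not past the threshold (edgeR adjusted p under 0.05), for untreated mice and mice given PBS. Endogenous ligands show 8 of 10 higher in untreated mice and 1 of 10 under PBS, and the adaptors show 5 higher and 6 lower of 19 in untreated mice and none under PBS. Over all genes, 24.7% were higher and 25.1% lower in untreated mice, and 2.40% and 0.280% under PBS.

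In mice given PBS, the same genotype comparison called fewer genes, 2.40% of 15331 higher, 0.280% lower and 2.68% in either direction. Of the 10 genes, 4 rose: Tlr7, Tlr13, Cd14 and Nfkb2. The median of the 10 was 1.13, beside -0.03 for all genes, and all 10 estimates were positive. By RPKM, 8 of the 10 did not overlap between the groups (all except Tlr3 and Tlr4), all higher, beside 23.2% of all genes higher and 1.35% lower. After TMM it was 7, beside 11.0% higher and 6.56% lower. The RPKM overlaps of Tlr3 and Tlr4 came from WT replicate 1, a library with high Myh7, at 0.818 and 0.921. WT replicates 2 and 3 were at 0.387 and 0.400 for Tlr3 and 0.300 and 0.384 for Tlr4. Both genes were lower there than in every dyW mouse (lowest 0.647 and 0.747). The share of all genes was not computed without that library. The macrophage sum was 12.4 to 13.4 RPKM in WT and 28.2 to 58.0 in dyW.

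Tlr13 was at 0.0515, 0.0486 and 0.0188 RPKM in the WT mice, which is 3 to 9 reads a library, and at 0.627, 0.337 and 0.231 in the dyW mice. Every dyW mouse was above every WT mouse, and the log2 fold change was 2.97 ± 0.45 (SE; edgeR adjusted p = 0.00765). This call was kept in all 16 alternative analyses. Cd14 was at 0.532, 0.613 and 0.566 and 3.46, 1.86 and 1.47 RPKM, with replicate 1 of dyW the highest, and its log2 fold change was 1.64 ± 0.31 (SE; edgeR adjusted p = 0.0178). Without replicate 2 or 3 of WT or replicate 1 or 2 of dyW it was 1.30 to 1.73 and not called (edgeR adjusted p 0.0501 to 0.0700).

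Tlr7 was at 0.179, 0.0751 and 0.106 RPKM in WT given PBS and 0.581, 0.419 and 0.444 in dyW, with a log2 fold change of 1.72 ± 0.40 (SE; edgeR adjusted p = 0.0419). Nfkb2 was at 4.45, 3.16 and 3.49 and 9.02, 6.43 and 6.67 RPKM, with 0.70 ± 0.16 (SE; edgeR adjusted p = 0.0451). Both sets of values were apart, but both calls were lost on leaving out any of these 6 libraries except WT replicate 1, with log2 fold changes of 1.50 to 1.79 for Tlr7 (edgeR adjusted p 0.0679 to 0.137) and 0.60 to 0.76 for Nfkb2 (0.0698 to 0.183).

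The others did not pass. Tlr2 was at 0.468, 0.429 and 0.456 RPKM in WT and 1.57, 0.931 and 0.501 in dyW, a wide spread among the dyW mice, with 0.81 ± 0.32 (SE; edgeR adjusted p = 0.255). Myd88 was at 2.98, 2.55 and 2.29 and 7.32, 4.75 and 4.13 RPKM, with 0.74 ± 0.23 (SE; edgeR adjusted p = 0.127). For Tlr4 the log2 fold change was 0.81 (edgeR adjusted p = 0.357), and without WT replicate 1, the library with the high Myh7, it was 1.31 (0.0797). Tlr8 and Tlr9 had estimates of 1.45 and 1.50, and Tlr3 of 0.33. Relative to the macrophage sum, which was 1.59 higher in dyW on the log2 scale, the ratio of Tlr13 was higher by 1.75 and that of Cd14 by 0.30, both without overlap. Nfkb2 (-0.60), Myd88 (-0.58), Tlr2 (-0.59) and Tlr3 (-0.94) had lower ratios in dyW without overlap. The share of all genes with such a separation was not computed. With the markers' median log2 level in place of their sum, the median difference over the members was -0.69 in place of -0.13. Values of single genes with that reference are not given here, so the higher ratio of Cd14 need not hold with it.

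Among the other pathway genes under PBS, 3 of 11 receptor partners rose: Unc93b1 (1.14), Ly86 (2.63) and Cd180 (2.63). The kinase Map3k14, which starts the processing of the Nfkb2 protein, rose by 0.78 (0.16 SE, edgeR adjusted p = 0.0287), 1 of 8 subunit and IKK genes. Nfkbie rose by 1.65 as 1 of 19 inhibitors, Tnfrsf1b by 1.25 as 1 of 10 alternative-branch genes, and Bgn by 1.20 as 1 of 10 ligands. Irf7 (1.43) and Irf5 (1.41) rose, and none of 19 adaptors, 12 targets or 3 other receptors passed. On the RPKM scale, tested with limma, more genes were higher in 5 of the 9 lists: 5 inhibitors, 3 alternative-branch genes, 3 targets, 3 interferon regulatory factors and 1 adaptor. The other lists had the same counts as in the edgeR fit. Over all genes, 368 (2.40%) were called higher and 43 lower in that fit, and 931 and 21 on the RPKM scale. Without WT replicate 3, 8 of these 9 named genes lost their calls, and the ninth, Ly86, lost it without WT replicate 2 or dyW replicate 1. Without WT replicate 2, dyW replicate 1, dyW replicate 2 and WT replicate 1 in turn, 6, 6, 4 and 2 of the 9 lost them.

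The genotype effect was compared between the untreated mice and those given PBS on all 18 libraries. Nfkb2 was the gene among the 10 that passed, beside 1.72% of 15771 genes in either direction, 0.526% higher and 1.20% lower. Its rise in dyW was larger in untreated mice by 1.04 ± 0.22 (SE; edgeR adjusted p = 0.0370) on the log2 scale. The means were 2.90 ± 0.531 and 14.4 ± 2.43 RPKM untreated and 3.70 ± 0.673 and 7.37 ± 1.43 under PBS. The difference between cohorts was lost without any of 8 of the 13 libraries (untreated WT replicate 2 or 3, untreated dyW 3 or 4, WT PBS 1 or 2, dyW PBS 2 or 3), at 0.94 to 1.21 and edgeR adjusted p of 0.0559 to 0.0976. For the other 9 genes the differences ran from -0.96 (Tlr7) to 0.55 (Tlr2), and none passed. The cohorts differ in label age as well as in PBS, and these cannot be told apart.

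The comparison of TD139 with PBS in dyW asks whether blocking galectin-3 alters the pathway in dystrophic muscle. None of the 10 genes passed, and neither did any of the 15331 genes tested with edgeR (0%). At an unadjusted p under 0.05 there were 583 genes (3.80%), among them Cd14 alone of the 10. DESeq2 called 2 genes higher and 2 lower and none of the 10. In the authors' deposited table the smallest FDR of the 10 was 0.762, for Tlr4.

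Cd14 was at 3.46, 1.86 and 1.47 RPKM in the dyW mice given PBS and 1.23, 1.24 and 1.55 in those given TD139. The RPKM ranges overlapped, as they did for all 10 genes, beside 6.99% of genes higher and 7.09% lower without overlap. After TMM scaling every TD139 mouse was below every PBS mouse for Cd14, beside 7.08% of genes lower and 7.18% higher. Its log2 fold change was -0.67 ± 0.30 (SE; edgeR adjusted p = 0.888), and it stayed below 0 in all 16 alternatives (-0.87 to -0.34). The log2 ratio of Cd14 to the macrophage sum was -4.07, -4.28 and -4.26 under PBS and -4.87, -4.90 and -4.73 under TD139, while the macrophage sum itself was 28.2 to 58.0 and 36.0 to 41.0 RPKM.

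The receptors had positive estimates under TD139, none past the threshold. Tlr8 was at 0.306, 0.136 and 0.215 RPKM under PBS and 0.247, 0.583 and 0.336 under TD139, with 0.91 ± 0.51 (SE; edgeR adjusted p = 0.888). Tlr4 was at 1.28, 0.747 and 1.32 and 1.63, 1.80 and 1.19 RPKM, with 0.52 ± 0.38 (SE; edgeR adjusted p = 0.888). The groups overlapped for both. Tlr7 (0.43), Tlr13 (0.40), Tlr9 (0.36), Tlr3 (0.20) and Tlr2 (0.15) also overlapped. Myd88 and Nfkb2 had estimates of -0.05 ± 0.23 and -0.02 ± 0.16 (SE); Nfkb2 was at 9.02, 6.43 and 6.67 RPKM under PBS and 7.39, 5.89 and 7.73 under TD139.

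In WT, TD139 against PBS gave no call either, for the 10 genes or for any of 15331 (0%); 304 genes and none of the 10 were under an unadjusted p of 0.05, and DESeq2 called 2 genes higher and 1 lower. The estimates ran from -0.55 (Tlr4) to 0.82 (Tlr8), with 2 WT mice given TD139. Tlr4 was at 0.921, 0.300 and 0.384 RPKM under PBS, highest in replicate 1, the library with high Myh7. Under TD139 it was at 0.202 and 0.457, and its estimate ran from -1.24 to -0.05 over 15 alternatives. Tlr13 and Cd14 were higher and Tlr2 lower without overlap between the groups, beside 2.96% of genes higher and 6.35% lower by RPKM and 4.82% and 4.23% after TMM. Tlr2 was at 0.468, 0.429 and 0.456 RPKM under PBS and 0.291 and 0.337 under TD139. How far the response to TD139 differed by genotype was tested too, and no gene passed (0%), with 294 genes at an unadjusted p under 0.05 by edgeR and 1 called by DESeq2. Cd14 had -1.10 ± 0.46 (SE; edgeR adjusted p = 1.000), the one member under an unadjusted p of 0.05 there.

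Between dyW and WT under TD139, 0.757% of genes were called higher, 0.287% lower and 1.04% in either direction. Tlr13 was the one of the 10 that passed, at 0.0743 and 0.0556 RPKM in WT and 0.500, 0.538 and 0.436 in dyW, with 2.56 ± 0.50 (SE; edgeR adjusted p = 0.0342). The call was lost on leaving out any 1 of the 5 libraries (2.37 to 2.80, edgeR adjusted p 0.0818 to 0.187). All 10 genes were without overlap, each higher in dyW, beside 47.2% of genes higher and 4.25% lower by RPKM and 20.0% and 17.8% after TMM. Tlr9 (2.28 ± 0.72 SE), Tlr7 (1.95 ± 0.46) and Tlr4 (1.89 ± 0.47) had the next largest estimates. Tlr9 had 1 and 8 reads in the WT libraries. Its estimate ran from 0.24 to 4.36 over 15 alternatives, which include limma on log2(RPKM + 0.1) and log2(RPKM + 1), scales unlike that of edgeR. Cd14, called under PBS, was at 0.802 and 0.646 RPKM in WT and 1.23, 1.24 and 1.55 in dyW, with 0.54 ± 0.35 (SE; edgeR adjusted p = 0.479). Of the other pathway genes Tnfrsf1b passed, at 1.18 ± 0.24 (SE; edgeR adjusted p = 0.0443), and it too was lost without any 1 library (0.95 to 1.45, 0.0666 to 0.288).

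Under TD139 the macrophage sum was 1.26 higher in dyW on the log2 scale, and several ratios to it had another sign than in untreated mice. Those of Tlr4 (1.06) and Tlr7 (1.20), lower in untreated dyW, were higher without overlap. Those of Tlr13 (1.67), Tlr9 (2.01) and Tlr2 (0.48) were also higher without overlap, and that of Tlr3 (-0.46) was lower. The ratio of Tlr9 rests on 1 and 8 reads in the WT mice. For Cd14 (-0.37), Tlr8 (0.91), Myd88 (-0.11) and Nfkb2 (-0.19) the groups overlapped. These signs are those beside the marker sum. With the markers' median log2 level in place of the sum, the median difference over the members was -0.41 in place of 0.69. Values of single genes with that reference are not given here, so the higher ratios above need not hold with it. WT given TD139 is 2 mice, and no ratio was tested or computed for all genes.

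Which genes ran most alike was asked over the 18 libraries, by the root mean square difference of log2 CPM after subtracting each gene's mean, among 10063 candidates. Tlr13 was nearest to C3ar1, the receptor for complement fragment C3a (0.38, where Tlr13 itself varied with an SD of 1.59), and Cyp1b1 (0.43). Cd14 was nearest to Tmem106a (0.29) and the complement gene C1qc (0.30). Tlr2 was nearest to Bmper (0.29) and Csf1r, a macrophage marker (0.31), and Tlr9 to Ms4a6b (0.47) and Ncf1, a subunit of the phagocyte oxidase (0.48). Tlr7 was nearest to Mnda (0.40) and Ifi204 (0.43), both of the interferon-inducible Ifi200 family, and Tlr8 to Svep1 (0.47) and Ifi204 (0.51). Tlr4 was nearest to Abca1 (0.29) and Ppfibp1 (0.31), and Tlr3 to Parp9 (0.18) and Etv6 (0.19). Myd88 was nearest to Lmna (0.19) and Plxnb2 (0.19), and Nfkb2 to Litaf (0.19).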

How the data were processed

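Whole quadriceps RNA was sequenced from 18 mice; per the labels' protocols, RNA was extracted with TRIzol and libraries were made with a stranded mRNA kit and read as pairs of 58 bases. The build mm10 is per the submitters' processing notes; the aligner, the counting tool, its strand setting and the authors' tests are not given in the sources used here. Per the file headers, the authors deposited for each library total and unique exon reads (counts) and RPKM values for 48709 genes, of which 87.7% have the same span in GENCODE M21. They also deposited tables of 2 comparisons with log2 fold changes, p-values and FDR-adjusted p-values, used only where the authors' deposited table is named.

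Total exon reads were tested in R 4.3.3 with edgeR 4.0.16 (quasi-likelihood F-test, TMM, filterByExpr with minimum count 10 and minimum total 15, Benjamini-Hochberg over all genes tested, threshold adjusted p under 0.05, no fold cutoff). Every member passed the filter in the fits reported; Tlr9 and Tlr13 did not in the alternative of WT given TD139 and WT given PBS alone. Untreated groups were fitted alone, the other 4 groups in 1 fit, and the difference between cohorts on all 18 libraries; comparisons of TD139 with PBS and of genotypes in the treated mice share libraries. SE is that of the fitted log2 fold change. As alternatives the data were refitted with limma 3.58.1 on log2(RPKM + 0.1) and log2(RPKM + 1), with DESeq2 1.42.0, with RLE size factors, without the filter, with robust fitting, with a sex term, with unique reads, with other sets of libraries and without each library in turn. Ranges over all alternatives include the limma estimates, which are on those RPKM scales and carry no TMM correction. The analysis code was tested on simulated data. No 2 libraries held identical values. Few reads limit the precision of the low genes, and reads are not independent molecules.

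The named genes are the 10 members, Lama2, Lgals3, up to 3 genes per pathway list and comparison with the smallest p among those past the threshold, any gene that a count of 5 or fewer needs (Irf3), and the 2 nearest genes in likeness (mean RPKM of at least 1), of which 1 is not reported here. Members, lists and the rule were chosen with earlier results of these data known, so nothing here is independent support for them. No protein sequence was used here.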

Additional observations from a re-analysis of the deposited data

Results flagged for a closer look

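Tlr2 in untreated dyW replicate 3 stood at 3.66 RPKM, above the other 3 dyW mice (1.94, 1.98, 3.66 and 2.00 RPKM for replicates 1 to 4). It was picked because its gap to the nearest of the others is large for a group of 4. The 10 genes gave 10 such checks, and chance gives about 1 in 20. The same mouse had the highest Cd14, Myd88, Nfkb2 and Tlr9 of its group and a Myh7 of 236 RPKM.

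Nfkb2 rose more in untreated dyW than in dyW given PBS, by 1.04 on the log2 scale (edgeR adjusted p = 0.0370), picked because the difference itself passed its test. Label age and PBS differ between these mice and cannot be told apart. Lgals3 differed by 1.64 in the same direction (edgeR adjusted p = 0.0567).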

How the results depend on the processing

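In untreated mice the count of members higher stayed at 5 to 7 when each library was left out and at 6 to 10 in the other alternatives. Under PBS the count, 4, became 2 with a sex term and 1 in a fit of only the groups compared, and was 1 to 4 without 1 library. Between genotypes under TD139 the count, 1, became 5 with DESeq2, 3 without a filter, 6 and 4 with limma on log2(RPKM + 0.1) and log2(RPKM + 1), 0 with a sex term, 4 in a fit of all 18 libraries and 3 in a fit of only the groups compared, and 0 without any 1 library. For the difference between cohorts it was 0 or 1 without 1 library. TD139 against PBS gave 0 members in each alternative, in dyW and in WT. Leaving out 1 of the 2 WT mice given TD139 assumes that the other varies as the other groups do.

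The median of members relative to the macrophage sum, -0.13 under PBS, was -0.69 with the markers' median level in place of their sum and -0.39 to 0.14 without 1 library (0.14 without WT replicate 1). Under TD139 it was 0.69, -0.41 with the median level and 0.53 to 0.77 without 1 library. In untreated mice it was -0.28, and -0.43 and -0.36 to -0.17. The sign of these medians outside untreated mice therefore rests on the setting; the cause was not tested.

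Some estimates changed sign. With limma on log2(RPKM + 0.1), Ikbkg in untreated mice was 0.13, Tlr13 was 0.075 for the difference of TD139 effects and 0.86 for that of cohorts, and Tlr3 was 0.047 for cohorts. With log2(RPKM + 1) they were 0.097, 0.068, 0.64 and 0.055, and Tlr4, Tlr7 and Tlr8 were 0.020, 0.14 and 0.094 for cohorts, and Tlr3 was -0.012 for TD139 in WT. The added 1 is larger than the mean RPKM of Tlr3, Tlr7, Tlr8 and Tlr13 in most groups, so these values are not fold changes. Without 1 library, Tlr3 in untreated mice ran from -0.075 to 0.34. For TD139 in dyW, Tlr2 ran from -0.14 to 0.52, Myd88 from -0.28 to 0.15 and Nfkb2 from -0.10 to 0.083. For TD139 in WT, Tlr3 ran from -0.084 to 0.38, Tlr7 from -0.69 to 0.75, Tlr8 from -0.61 to 1.53, Tlr9 from -2.50 to 0.40, Myd88 from -0.43 to 0.14 and Nfkb2 from -0.25 to 0.15. For the difference of TD139 effects, Tlr3 ran from -0.18 to 0.37, Tlr7 from -0.32 to 1.12, Tlr8 from -0.61 to 1.53, Tlr9 from -0.042 to 2.86, Myd88 from -0.18 to 0.38 and Nfkb2 from -0.16 to 0.23. For cohorts, Tlr9 ran from -0.19 to 0.93 and Tlr13 from -0.40 to 0.21.

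Counts over all genes moved under PBS from 368 higher and 43 lower to 685 and 179 with DESeq2, 931 and 21 with limma on log2(RPKM + 0.1), 796 and 18 on log2(RPKM + 1), 573 and 83 in a fit of all 18 libraries, 180 and 13 in a fit of only the groups compared, 422 and 73 without a filter, and 113 to 465 and 6 to 136 without 1 library. Under TD139 they moved from 116 and 44 to between 97 and 519 and between 22 and 263, and to 4 to 70 and 2 to 21 without 1 library. For cohorts they moved from 83 and 189 to between 44 and 553 and between 29 and 636, and to 0 to 303 and 0 to 361 without 1 library; the share of calls that are higher, 30.5%, was 46.5% with DESeq2, 41.2% with RLE, 47.2% without a filter, 42.2% in a fit of only the groups compared and 61.3% with limma on either pseudocount. That share under PBS went from 89.5% to 79.3% with DESeq2, and under TD139 from 72.5% to 94.0% and 92.6% with limma. In untreated mice, limma on log2(RPKM + 1) called 7434 higher and 1288 lower. Leaving out untreated dyW replicates 3 and 4, chosen after seeing the data for their high Myh7, called 8 members, adding Tlr4. No paired analysis was possible because each library comes from its own animal and the labels give no shared number.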
